A study of Manis javanica with 3 samples.

Results

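Genes of fatty acid oxidation and ketone formation were examined in 3 digestive organs (liver, salivary glands and small intestine) of the Malayan pangolin (*Manis javanica*), an ant-eating mammal. They were found by 33 symbols, taken from the Swiss-Prot entry of each gene in the deposited annotation or, failing that, from its KEGG entry. Of 24220 genes, 50 carried 1 of these symbols, and the best hit in the nr protein database named a listed enzyme for 43 of them. These 43 gene models, which stand for 32 of the 33 symbols, are the members described here. The other symbol, DECR1, was found through the nr product name only, as were 6 further models, and these 7 are described apart. For 8 of the 43 members the symbol was that of a related gene, and the nr entry was used to name them. The long-chain acyl-CoA synthetases ACSL1, ACSL4, ACSL5 and ACSL6, for example, all carried the symbol of ACSL3.

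The RNA came from 1 wild adult female that died while being rescued, with no treatment named, and each tissue was sequenced as 1 library. There was therefore no replicate, and no difference below was tested against the spread between animals. In bulk tissue, fewer cells of a type and less RNA per cell cannot be told apart. Values are given as the deposited fragment count and as FPKM, the fragments scaled for transcript length and for the mapped fragments of the library, which alone allows levels to be compared between genes. Folds between libraries were taken from counts scaled by TMM, a scaling that offsets a few very abundant genes. Each fold carries a 95% exact interval that covers counting error only. A fold of at least 2 was called a difference when 1 of the 2 libraries had at least 10 counts.

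Long-chain fatty acids are first joined to coenzyme A and then carried into mitochondria by the carnitine shuttle, in which carnitine palmitoyltransferase 1 (CPT1) is the main point of control. Inside, each round of beta-oxidation shortens the chain through a dehydrogenase, a hydratase, a second dehydrogenase and a thiolase, and electrons leave through the electron transfer flavoprotein. Peroxisomes shorten very long, branched and bile acid precursor chains with their own oxidases. Liver mitochondria turn acetyl-CoA into ketone bodies during fasting, beginning with acetoacetyl-CoA thiolase, and other organs burn them through OXCT1, an enzyme that the liver normally lacks.

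The counts summed to between 8318686 (salivary glands) and 14568778 (liver). For liver, all 7 hepatocyte marker models found had an FPKM above 1, with a summed FPKM of 14550 against 109 for small intestine and 123 for salivary glands. In the library labelled small intestine, 2 of 8 enterocyte marker models passed an FPKM of 1, with CDX1, FABP2 and LCT at 0. Its summed FPKM for the enterocyte list was 26.8, against 26.8 in salivary glands and 27.2 in liver. By contrast 9 of 10 gastric marker models passed there, with a summed FPKM of 117900 against 89.8 in salivary glands and 2.13 in liver. The 4 smooth muscle models summed to an FPKM of 3039 for small intestine, 239 for salivary glands and 27.5 for liver. In the salivary gland library, 4 of 5 salivary gland models passed. The list summed to an FPKM of 63230 there, against 318 in small intestine and 79.4 in liver, and LATH (latherin) alone gave 62920. AQP5 and PIP were also highest in salivary glands. CST3 had an FPKM of 200 in small intestine against 186 in salivary glands, and LPO was below 1 in every library. Skeletal muscle and adipocyte lists summed to at most 32.8 and 30.5 in any library. The part of gastric, smooth muscle, skeletal muscle and adipocyte RNA in the values below was not tested. By its enterocyte and gastric markers the library labelled small intestine thus went against its label. The comparison of liver with salivary glands does not use that library.

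Most of the machinery was expressed in all 3 tissues. An FPKM above 1 was found for 36 of 43 members for small intestine (background 59.4% of all genes), 36 for salivary glands (background 56.3%) and 37 for liver (background 57.0%). In all libraries at once 35 members passed, a share of 81.4% against 46.9% of all genes. Members below 10 counts in every library numbered 5. They were ACSL6, the HSD17B4 model newGene_8788, the ECI2 model newGene_10472 and the ACAT1 models newGene_9458 and newGene_13531, each with between 0 and 4 counts in any library. No fold is given for these 5. The liver count of 37 includes newGene_10472, whose FPKM of 2.93 there rests on 1 count. Summed over the members, counts made up 0.142% of the total for small intestine, 0.228% for salivary glands and 0.223% for liver.

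**Figure D1:**
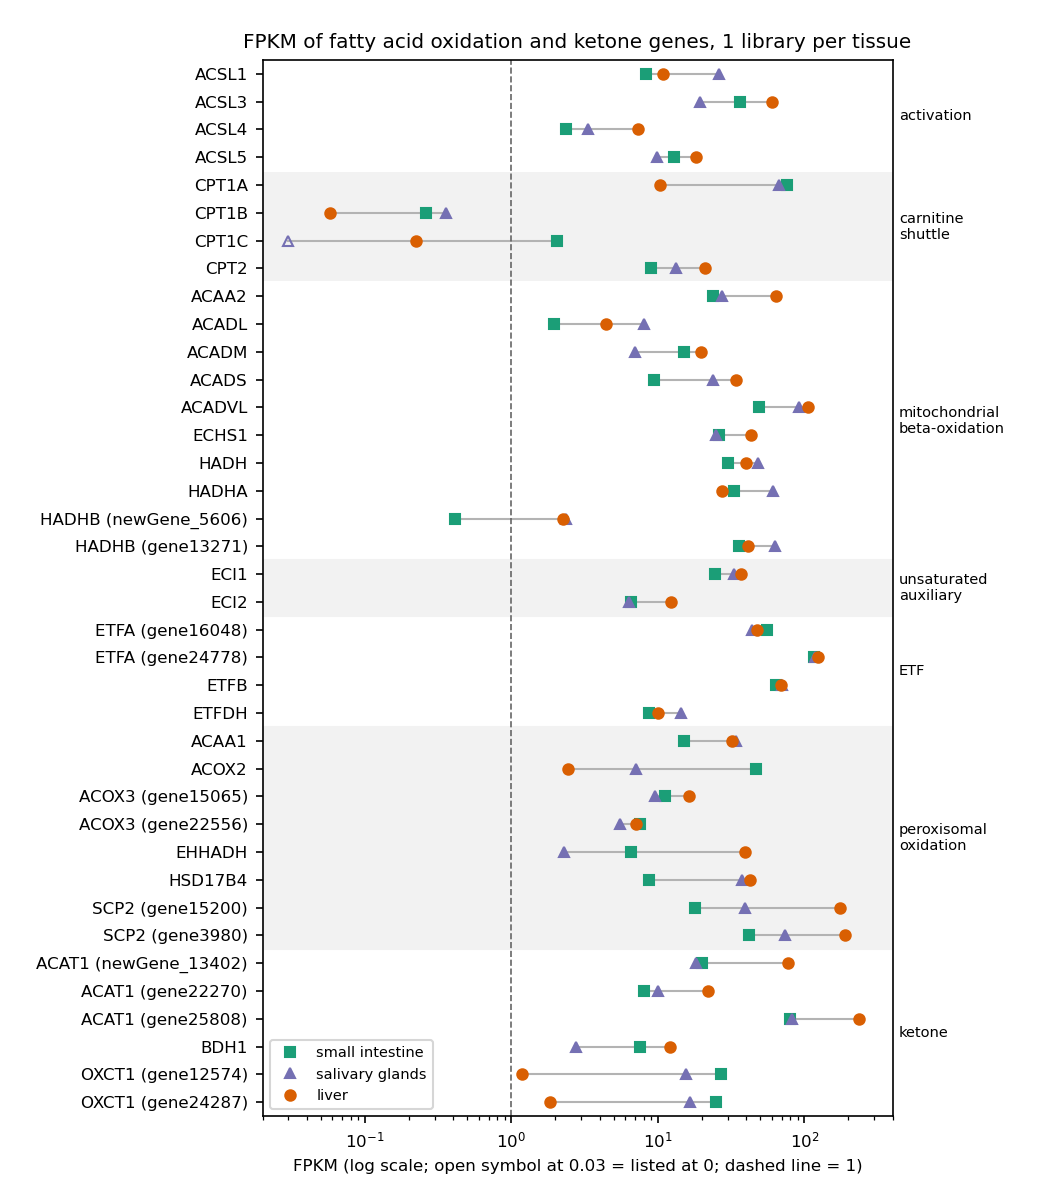
FPKM (log scale) of the 38 members with at least 10 counts in any library, by role, with 1 point per library and an open symbol for a value listed at 0. Liver points lie to the right for SCP2, EHHADH and ACAT1 and to the left for CPT1A, ACOX2 and both OXCT1 models.

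Members moved in both directions between liver and the other libraries. EHHADH, the SCP2 model gene15200 and 2 of the ACAT1 models were at least 2-fold higher in liver than in either other tissue. ACAA2, BDH1 and the SCP2 model gene3980 also were, though not under every scaling. CPT1A, ACOX2 and both OXCT1 models were at least 2-fold lower in liver than in either other tissue. Of 37 members with enough counts in the liver and small intestine, 16 were at least 2-fold higher in liver (43.2% against a background of 24.0% of all genes) and 5 were higher in small intestine (13.5% against 24.2%). Their median log2 fold of liver over small intestine was 0.75, against 0.08 over 17399 genes. Models of 1 symbol were counted separately, so the 16 include several of ACAT1 and both of SCP2, and the 5 include both of OXCT1. Of 38 members compared between liver and salivary glands, 11 were higher in liver (28.9% against a background of 24.9%) and 8 in salivary glands (21.1% against 22.9%), shares near those of all genes. The 11 include CPT1C, with 12 counts in liver and 0 in salivary glands, and the 8 include CPT1B, with 3 and 12. The median log2 fold there was 0.28, against 0.07 over 17162 genes. With counts scaled by library size only, the 11 and 8 members became 7 higher (18.4% against a background of 21.3%) and 8 lower (21.1% against 26.7%). Between the small intestine and salivary glands, 5 of 38 members were higher in small intestine (13.2% against a background of 20.6%) and 8 in salivary glands (21.1% against 16.9%). With library size only, these counts became 3 (7.89% against a background of 15.8%) and 17 (44.7% against 28.5%). For liver against small intestine they became 18 (48.6% against a background of 29.5%) and 5 (13.5% against 21.7%). The median of all genes then moved to a log2 fold of 0.32 for liver over small intestine, -0.15 for liver over salivary glands and -0.47 for small intestine over salivary glands. The members' own median for the last comparison was -0.38 with TMM and -0.84 with library size only. Past 4-fold with TMM, 5 members were higher in liver and 5 in small intestine (13.5% each, against a background of 11.4% and 15.4%). Between liver and salivary glands 2 and 4 were past 4-fold (5.26% and 10.5%, against 12.7% and 12.7%), and between small intestine and salivary glands 2 and 3 (5.26% and 7.89%, against 11.6% and 6.42%).

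**Figure D2:**
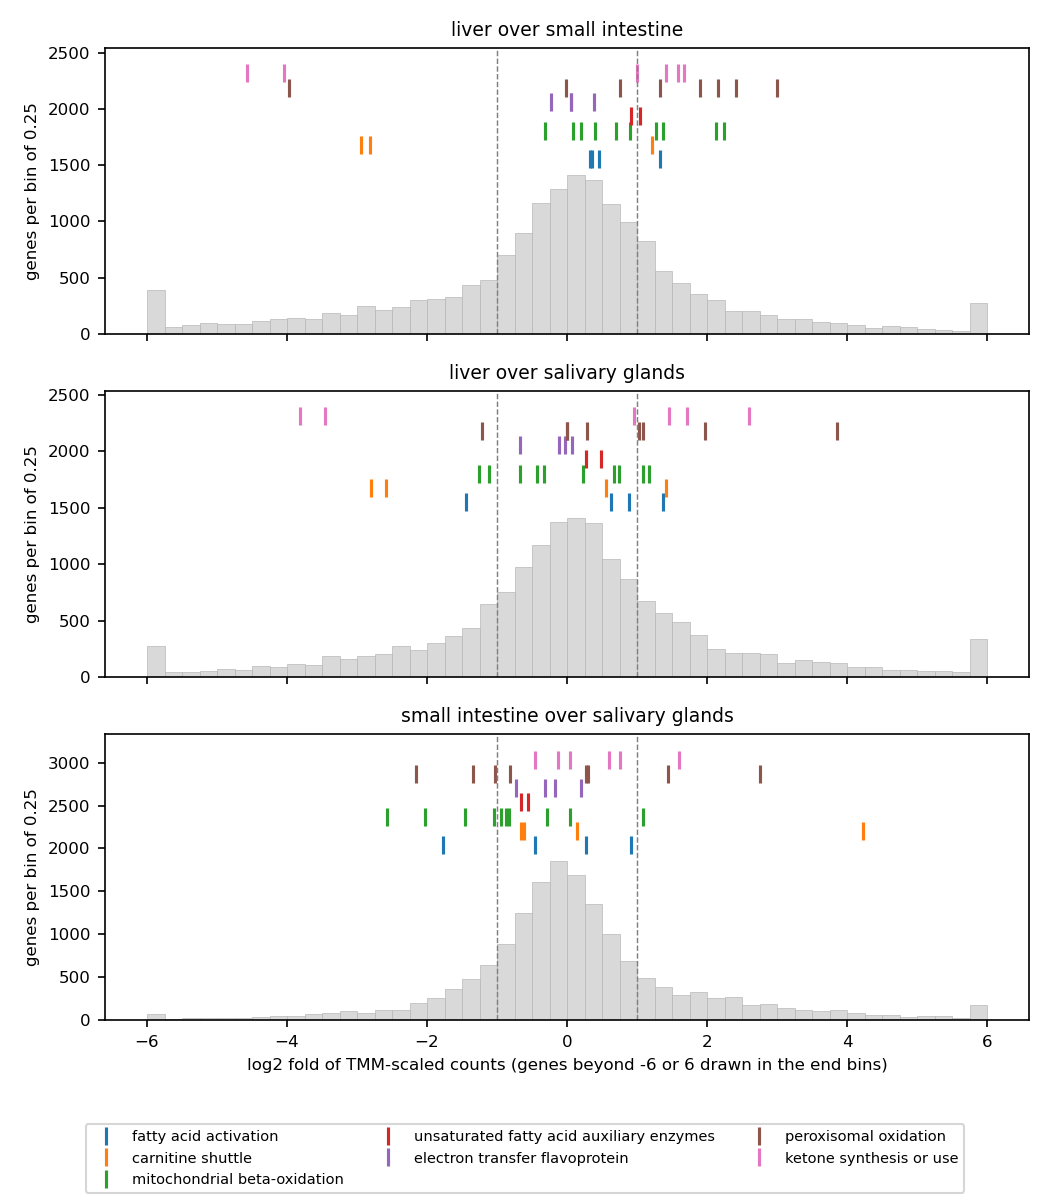
Log2 folds of TMM-scaled counts for all genes with at least 10 counts in 1 of 2 libraries (grey bars, genes per bin of 0.25) and for the members (ticks, by role) in the 3 comparisons, with dashed lines at 2-fold. In the top panel 16 ticks lie at or above 2-fold higher in liver and 5 at or beyond 2-fold lower.

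Fatty acid activation differed by isoform rather than as a group. ACSL1, the main acyl-CoA synthetase of liver, fat and muscle in other mammals, had an FPKM of 8.25 in small intestine, 26.3 in salivary glands and 10.9 in liver. Salivary glands were highest, 2.72-fold above liver (95% interval 2.46 to 3.02) and 3.42-fold above small intestine (3.0 to 3.92). ACSL3, a synthetase of lipid droplets and the endoplasmic reticulum, had an FPKM of 36.5, 19.5 and 59.8 in small intestine, salivary glands and liver. Among the ACSL genes it was the most abundant for liver and small intestine, and liver exceeded salivary glands 2.60-fold (2.35 to 2.88). ACSL4, which prefers arachidonic acid, had an FPKM of 2.35, 3.36 and 7.27 in the same order and was 2.52-fold higher in liver than in small intestine (2.10 to 3.04). ACSL5, a synthetase of liver and intestine, had an FPKM of 12.9, 9.85 and 18.2, and no pair of libraries reached 2-fold. ACSL6 had 1 count for small intestine and 0 elsewhere, where a count of 0 allows up to 3 counts.

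The carnitine shuttle showed the lowest liver values of its rate-controlling enzyme. CPT1A, the CPT1 isoform of liver and most non-muscle tissue (gene14755; scaffold NW_016538308.1, 352595 to 399418, minus strand), had an FPKM of 75.9 in small intestine, 67.2 in salivary glands and 10.3 in liver. The counts behind these values were 3116, 3159 and 685. Liver was 7.70-fold below small intestine (7.09 to 8.38) and 6.94-fold below salivary glands (6.39 to 7.55), whereas the latter tissues lay within 1.11-fold of each other (1.06 to 1.17). Only 9.97% of all genes compared had a lower fold of liver over small intestine than CPT1A, and 8.35% had a lower fold of liver over salivary glands. CPT2, the enzyme that releases acyl-CoA on the inner side of the membrane, had the other order, with an FPKM of 9.03, 13.3 and 21.1. It was 2.32-fold higher in liver than in small intestine (2.0 to 2.71) and 1.47-fold higher than in salivary glands (1.30 to 1.66).

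The other CPT1 isoforms had lower FPKM values than CPT1A, and CPT1B rested on at most 12 counts in any library. CPT1B, the muscle isoform, had 7 counts in small intestine, 12 in salivary glands and 3 in liver, at an FPKM of 0.262, 0.357 and 0.0579. Liver was 6.02-fold below salivary glands, but the interval ran from 1.63 to 33.3. CPT1C, the brain isoform, had 50 counts in small intestine (FPKM 2.05), 0 in salivary glands and 12 in liver (FPKM 0.224). Small intestine was 7.05-fold above liver (3.70 to 14.6) and at least 18.7-fold above salivary glands when the 0 was set to 3 counts. With the same setting liver was at least 2.66-fold above salivary glands, a call that rests on 12 counts.

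**Figure D3:**
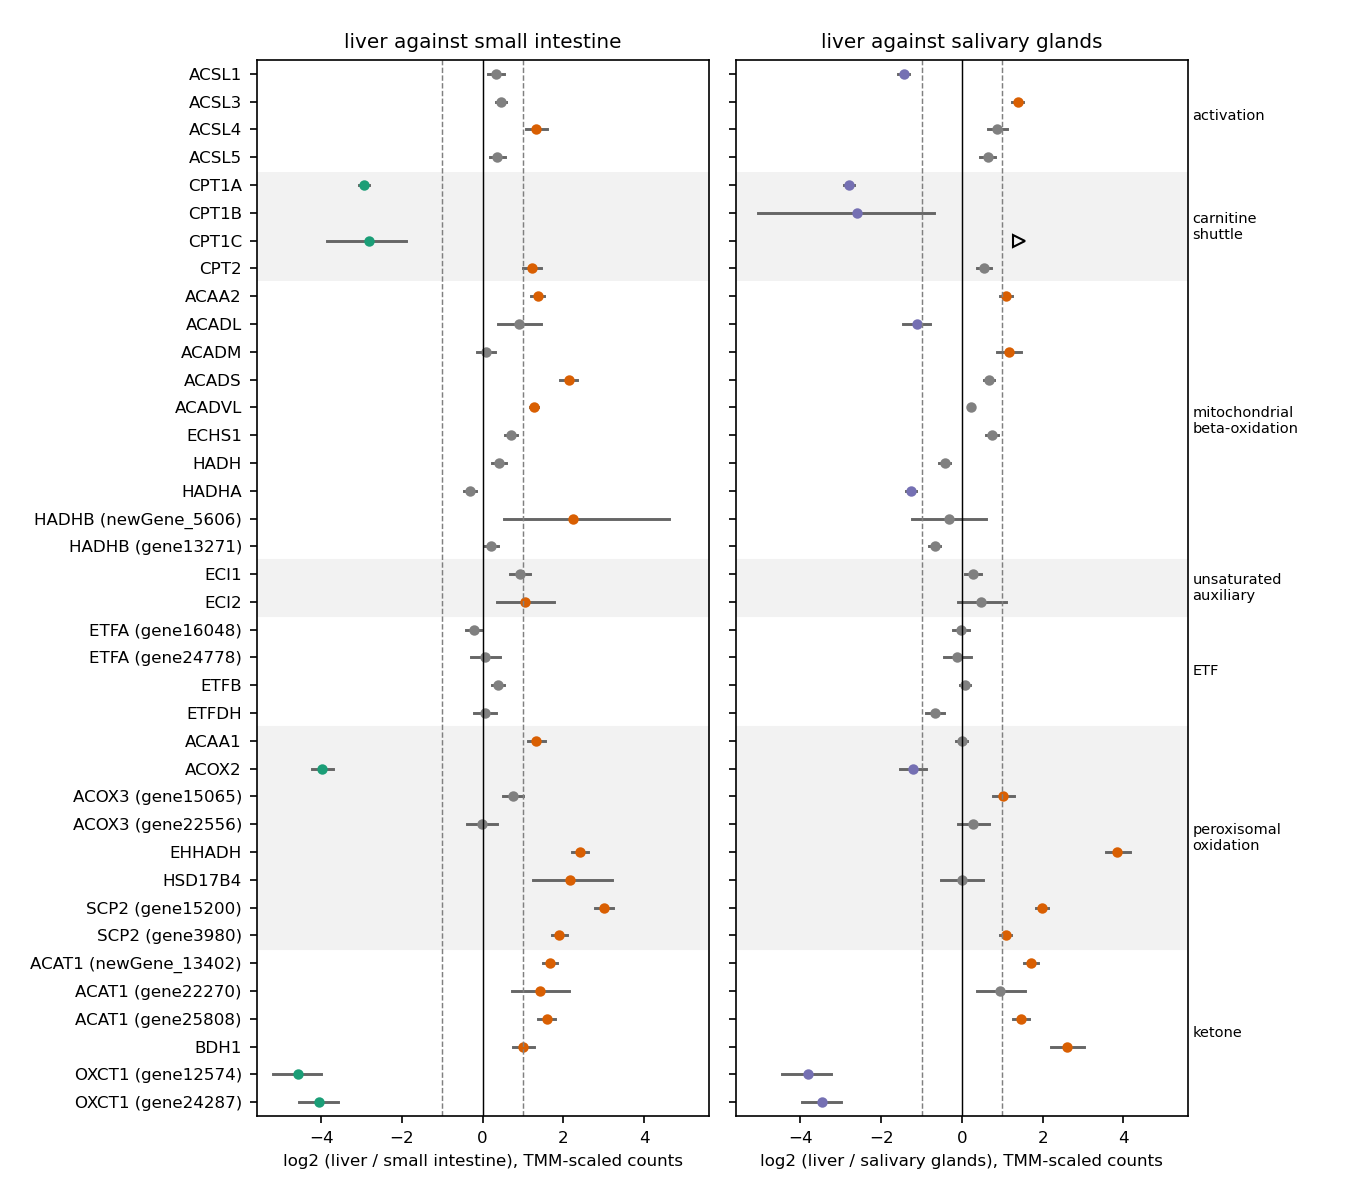
Log2 folds of liver over small intestine (left) and over salivary glands (right) for the members, from TMM-scaled counts, with 95% counting intervals, dashed lines at 2-fold, an open triangle for a bound, and colour for the library that was at least 2-fold higher (orange, liver). CPT1A and both OXCT1 models lie left of the lower 2-fold line in both panels, and ACAT1, EHHADH and SCP2 lie right of the upper line in the left panel.

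Of 10 models of mitochondrial beta-oxidation, 4 were at least 2-fold higher in liver than in small intestine and 0 lower, beside 24.0% and 24.2% of all genes. Against salivary glands 2 were higher in liver and 2 lower, beside 24.9% and 22.9% of all genes. The 4 called against small intestine include the HADHB model newGene_5606, with 3 counts in small intestine and 24 in liver. The first dehydrogenases differ in chain length. ACADVL, for very long chains, had an FPKM of 49.2 in small intestine, 91.4 in salivary glands and 105.5 in liver. Liver was 2.41-fold above small intestine (2.25 to 2.57) and 1.17-fold above salivary glands (1.11 to 1.23). ACADL, for long chains, had an FPKM of 1.96, 8.05 and 4.44, and salivary glands were 2.17-fold above liver (1.73 to 2.73) and 4.07-fold above small intestine (2.90 to 5.82). ACADM, for medium chains, had an FPKM of 15.1, 6.96 and 19.6, with liver 2.25-fold above salivary glands (1.84 to 2.77) and 1.06-fold above small intestine (0.901 to 1.25). ACADS, for short chains, had an FPKM of 9.47, 23.7 and 34.4, and liver was 4.39-fold above small intestine (3.80 to 5.08). The medium-chain enzyme was therefore lowest in salivary glands, and the other 3 were lowest in small intestine.

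HADHA, the alpha subunit of the mitochondrial trifunctional protein, which carries the long-chain hydratase and dehydrogenase, had an FPKM of 33.1 in small intestine, 61.0 in salivary glands and 27.4 in liver. Salivary glands were 2.40-fold above liver (2.21 to 2.61) and 1.93-fold above small intestine (1.76 to 2.11). HADHB, the thiolase subunit (gene13271), had an FPKM of 35.8, 63.2 and 41.5, again highest in salivary glands, 1.60-fold above liver (1.45 to 1.77). A second HADHB model, newGene_5606, had 3, 20 and 24 counts in small intestine, salivary glands and liver, with liver 4.73-fold above small intestine at an interval of 1.44 to 24.5. Both subunits of the complex were thus highest in the salivary gland library by their larger models.

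The soluble enzymes for shorter chains differed in the order of the tissues, and ACAA2 was the only one past 2-fold for any pair. ECHS1, the short-chain hydratase, had an FPKM of 26.3, 24.9 and 43.4, and liver was 1.62-fold above small intestine (1.46 to 1.8) and 1.67-fold above salivary glands (1.51 to 1.86). HADH, the medium- and short-chain hydroxyacyl-CoA dehydrogenase, had an FPKM of 29.9, 48.7 and 40.3, highest in salivary glands, with no pair at 2-fold. ACAA2, the thiolase that closes the cycle, had an FPKM of 23.8, 27.2 and 63.9. Liver was 2.58-fold above small intestine (2.30 to 2.89) and 2.12-fold above salivary glands (1.92 to 2.35), though the latter was under 2-fold with library size only.

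Of 2 member models for unsaturated chains with enough counts, 1 was at least 2-fold higher in liver than in small intestine, and neither was past 2-fold between liver and salivary glands. ECI1, an isomerase that moves double bonds, had an FPKM of 24.4 in small intestine, 33.3 in salivary glands and 37.0 in liver, with liver 1.89-fold above small intestine (1.60 to 2.25). ECI2, an isomerase of mitochondria and peroxisomes (newGene_9916), rested on 23, 38 and 80 counts and was 2.06-fold higher in liver than in small intestine (1.28 to 3.42), under 2-fold by FPKM. DECR1, the mitochondrial dienoyl-CoA reductase, was found by product name only (gene6844). Its FPKM was 13.9, 20.7 and 38.5, and liver was 2.14-fold above small intestine (1.86 to 2.48) and 1.46-fold above salivary glands (1.30 to 1.65).

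The electron transfer flavoprotein and its dehydrogenase were the most even group. None of their 4 models reached 2-fold in any of the 3 comparisons. ETFB, the beta subunit, had an FPKM of 64.4, 70.7 and 69.5 in small intestine, salivary glands and liver. ETFA, the alpha subunit, had 2 models, gene16048, with an FPKM of 55.5, 43.9 and 47.8, and gene24778 with 117, 119 and 124. Neither model was more than 1.17-fold apart between any pair of libraries. ETFDH, which passes the electrons to the respiratory chain, had an FPKM of 8.75, 14.3 and 10.1, and salivary glands were 1.59-fold above liver (1.36 to 1.86). An opposite-strand model with 119, 110 and 280 counts overlaps ETFDH, and the unstranded reads of both cannot be told apart.

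Peroxisomal oxidation held both the largest liver excess over salivary glands and 1 of the largest liver deficits among the members with at least 50 counts. EHHADH, the L-bifunctional enzyme (gene1910; scaffold NW_016528262.1, 89088 to 130727, minus strand), had an FPKM of 6.51 in small intestine, 2.29 in salivary glands and 39.3 in liver, from 231, 96 and 2088 counts. Liver was 5.34-fold above small intestine (4.66 to 6.14) and 14.5-fold above salivary glands (11.8 to 17.9). Of all genes compared, 95.1% had a lower fold of liver over salivary glands.

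SCP2, the sterol carrier protein whose long form is the peroxisomal thiolase for branched chains, had 2 models on different scaffolds. One, gene3980, had an FPKM of 42.0, 73.5 and 188 in small intestine, salivary glands and liver. The other, gene15200, had 17.9, 39.5 and 176. Liver was highest in both, 3.72-fold (3.27 to 4.23) and 8.0-fold (6.89 to 9.32) above small intestine and 2.12-fold (1.93 to 2.34) and 3.93-fold (3.55 to 4.36) above salivary glands. The 2.12-fold value was not past 2-fold under every scaling. The models agreed on the order of the tissues and differed in the size of the fold.

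ACOX2, the oxidase of bile acid precursors and branched chains (gene6942; scaffold NW_016531509.1, 29999 to 53521, plus strand), had the reverse order. Its FPKM was 46.7 in small intestine, 7.08 in salivary glands and 2.45 in liver, from 1279, 212 and 138 counts. Small intestine was 15.7-fold above liver (13.2 to 18.8) and 6.78-fold above salivary glands (5.86 to 7.88), and salivary glands were 2.31-fold above liver (1.86 to 2.89). Only 6.07% of all genes compared had a lower fold of liver over small intestine. The summed FPKM of the gastric markers and that of the smooth muscle markers had the same order, as did CPT1A and both OXCT1 models. The part of gastric or smooth muscle RNA in any of these values was not tested.

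ACOX3, a second branched-chain oxidase, had 2 models, gene15065 with an FPKM of 11.2, 9.64 and 16.2 and gene22556 with 7.57, 5.52 and 7.12. Liver exceeded salivary glands 2.04-fold in the former (1.71 to 2.44), under 2-fold with library size only, and 1.22-fold in the latter (0.941 to 1.59). ACAA1, the peroxisomal thiolase of straight chains, had an FPKM of 15.2, 33.9 and 32.3, and small intestine was lowest, 2.52-fold below liver (2.19 to 2.90). HSD17B4, the D-bifunctional enzyme, had 1 member model with enough counts and 2 models found by product name. The member, newGene_11693, had 11, 55 and 83 counts, and the others, gene10935 and gene19348, had 51, 234 and 315 and 61, 188 and 399. All 3 models were lowest in small intestine, with liver 4.46-fold (2.37 to 9.27), 3.65-fold (2.71 to 5.01) and 3.86-fold (2.95 to 5.15) higher. Between liver and salivary glands they lay within 1.41-fold.

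ACAT1, the mitochondrial acetoacetyl-CoA thiolase, makes the first intermediate of ketone synthesis and also splits acetoacetyl-CoA when ketones are burned. It had 5 models on 5 scaffolds, of which 3 had enough counts. The largest by FPKM, gene25808 (scaffold NW_016581756.1, 607 to 9965, minus strand), had an FPKM of 80.1 in small intestine, 82.0 in salivary glands and 235 in liver. The model newGene_13402 had 19.98, 18.1 and 77.7, and gene22270 had 8.01, 10.1 and 21.8. Liver was highest in all 3, by 3.01-fold (2.61 to 3.49), 3.17-fold (2.81 to 3.59) and 2.66-fold (1.66 to 4.43) over small intestine. Over salivary glands it was higher by 2.74-fold (2.41 to 3.14), 3.28-fold (2.92 to 3.70) and 1.93-fold (1.30 to 2.95). Reads that could belong to more than 1 of these models may have been divided among them, so the level of any one is uncertain. For ACAT1, as for OXCT1, SCP2, ETFA, HSD17B4, HADHB, ACOX3 and ECI2, pieces of 1 gene and separate copies cannot be told apart here.

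BDH1, which interconverts acetoacetate and beta-hydroxybutyrate (gene3466; scaffold NW_016529192.1, 27391 to 68769, plus strand), had an FPKM of 7.57, 2.78 and 12.0 from 162, 60 and 549 counts. Liver was highest, 6.08-fold above salivary glands (4.65 to 8.07) and 2.0-fold above small intestine (1.68 to 2.40), the latter at a log2 fold of 0.67 when FPKM was used.

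OXCT1, the transferase that commits ketone bodies to oxidation, was lowest in liver. It had 2 models, gene12574 (scaffold NW_016536097.1, 181673 to 293897, plus strand) and gene24287 (scaffold NW_016562332.1, 6403 to 29143, plus strand). The former had 379 counts in small intestine, 253 in salivary glands and 27 in liver, at an FPKM of 27.0, 15.6 and 1.18. The latter had 420, 313 and 43 counts, at an FPKM of 24.9, 16.7 and 1.85. Small intestine exceeded liver 23.8-fold (16.1 to 36.5) and 16.5-fold (12.1 to 23.2), and salivary glands exceeded liver 14.1-fold (9.47 to 21.8) and 10.96-fold (7.95 to 15.5). Both models thus placed the tissues in the same order with intervals that overlap. Between small intestine and salivary glands they differed by 1.68-fold (1.43 to 1.98) and 1.51-fold (1.30 to 1.75). Of all genes compared, 4.34% and 5.79% had a lower fold of liver over small intestine than these models.

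**Figure D4:**
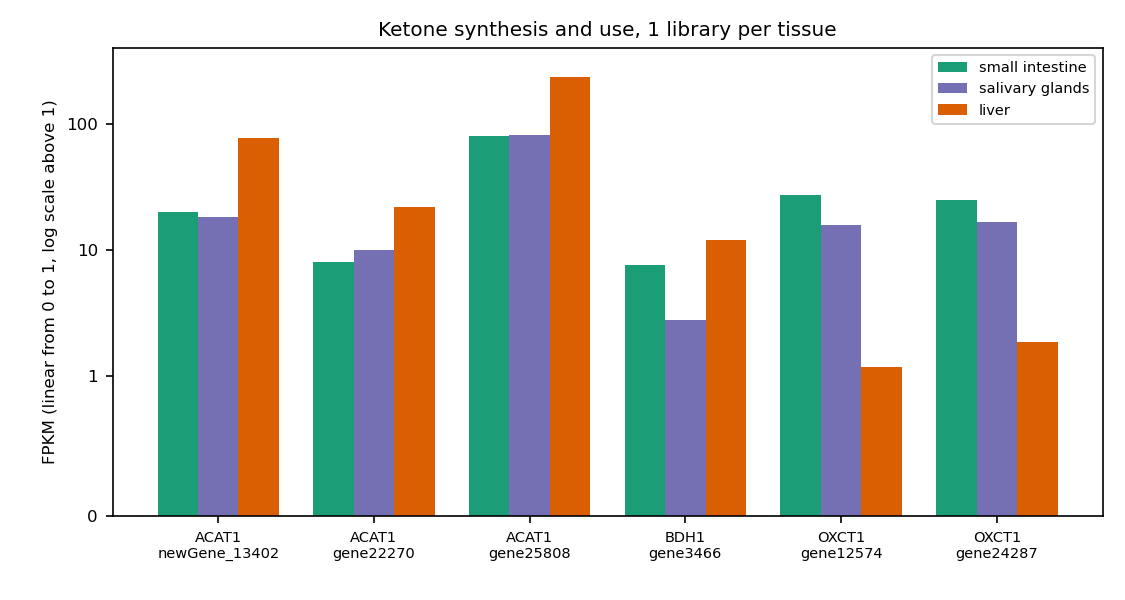
FPKM (linear from 0 to 1 and log scale above 1) of the ACAT1, BDH1 and OXCT1 models with at least 10 counts, in the 3 libraries. The liver bar is highest for the 3 ACAT1 models and BDH1 and is lowest for both OXCT1 models.

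Other genes of the pathway were read from 6 lists, found by the same rule in 59 models. Of 52 compared between liver and small intestine, 24 were at least 2-fold higher in liver and 5 were lower, against the background of 24.0% and 24.2% given above. Of 52 compared between liver and salivary glands, 19 were higher in liver and 7 lower, against 24.9% and 22.9%. Against small intestine, liver was higher for 5 and lower for 2 of 10 genes of fatty acid uptake and binding, higher for 3 of 4 other carnitine genes, 2 of 5 other acyl-CoA dehydrogenases, 3 of 7 other ketone genes and 6 of 8 other peroxisomal genes with 0 lower in these 4 lists, and higher for 5 and lower for 3 of 18 regulators and targets. Against salivary glands, liver was higher for 5 and lower for 1 of the 10 uptake and binding genes, higher for 1 of 4 carnitine genes and 1 of 5 acyl-CoA dehydrogenases with 0 lower in both lists, higher for 3 and lower for 1 of 7 ketone genes, higher for 4 and lower for 1 of 8 peroxisomal genes, and higher for 5 and lower for 4 of 18 regulators and targets. PHYH, which starts the alpha-oxidation of phytanic acid, had an FPKM of 26.1 in small intestine, 17.3 in salivary glands and 183 in liver, with liver 9.36-fold above salivary glands (8.22 to 10.7). DECR2, the peroxisomal dienoyl-CoA reductase, had an FPKM of 88.7, 101 and 191.

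Transcripts of some genes for the supply of fatty acids and carnitine also differed. SLC27A2, a very long-chain acyl-CoA synthetase and fatty acid transporter, had an FPKM of 0, 1.87 and 135 in its model gene14638 and 0, 0.369 and 89.0 in gene26540. Liver was at least 146-fold and 214-fold above small intestine in these models. ALDH9A1, an aldehyde dehydrogenase of carnitine synthesis, had an FPKM of 28.8, 74.3 and 173, with liver 5.06-fold above small intestine (4.63 to 5.52). SLC25A20, the carrier that exchanges acylcarnitine for carnitine between CPT1 and CPT2, had an FPKM of 16.2, 18.0 and 23.5, and no pair reached 2-fold. Of the dehydrogenases of amino acid breakdown, GCDH for glutaryl-CoA had an FPKM of 45.1, 26.2 and 77.4, and ACAD8 for isobutyryl-CoA had 25.7, 20.8 and 14.9. GCDH overlaps 2 opposite-strand models with at most 192 counts in any library.

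Of the ketone list, 2 carriers of ketones and lactate had the highest FPKM. SLC16A7 (monocarboxylate transporter 2) had an FPKM of 7.57, 16.7 and 116, and liver was 9.71-fold above small intestine (8.88 to 10.6) and 7.16-fold above salivary glands (6.66 to 7.71). SLC16A1 (monocarboxylate transporter 1, gene12564) had an FPKM of 11.9, 2.04 and 19.6, with salivary glands lowest and liver 7.90-fold above them (5.96 to 10.7) but 1.34-fold above small intestine (1.16 to 1.55). PPARA, the nuclear receptor that drives genes of fatty acid oxidation in fasting, varied little, with an FPKM of 6.15, 4.20 and 6.11 and liver 1.4-fold above salivary glands (1.23 to 1.59). CREB3L3, a liver factor of the fasting response (gene22651), had 10, 2 and 1032 counts, with liver 61.0-fold above small intestine (33.02 to 127.5). PDK4, the kinase that shuts off pyruvate dehydrogenase when fat is burned, had an FPKM of 125, 719 and 139.9. Salivary glands were highest, 6.40-fold above liver (6.20 to 6.61) and 5.70-fold above small intestine (5.49 to 5.92).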

How the data were processed

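For 3 tissues from 1 adult female, mRNA was purified from total RNA with poly-T beads and sequenced as 1 library each on an Illumina HiSeq instrument. The authors removed reads with adaptors, many unknown bases or low quality. They aligned the rest with TopHat2 without strand and assembled new genes with Cufflinks. The genome build and versions are not given in the sources used here. The deposited counts are whole numbers per gene, and whether RSEM, which the study names for FPKM, also made them is not given in the sources used here. The deposited FPKM was computed by the authors from fragments, transcript length and mapped fragments. A score deposited by the authors served only to check the counts. Divided by 1 factor per library, it implies an estimate for each gene. The counts stood 0 to 1 above that estimate for at least 99.5% of genes with a count. They were not equal to it for 35.7% to 37.6% of these genes. The counts may therefore be estimates rounded up, and the intervals treat them as counts.

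Members were rows with a listed symbol whose nr entry names a listed enzyme. Members and lists were chosen with earlier results of these data known. The text names every member, the 2 models of highest FPKM in each other list, and PPARA, except that some genes are not reported here. Levels of markers were read in every library from lists for hepatocytes, enterocytes, stomach, salivary gland, skeletal muscle, adipocytes and smooth muscle.

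Counts were scaled by TMM (edgeR 4.0.16, R 4.3.3). Folds and exact conditional binomial intervals came from Python 3.11.15 with numpy 2.4.6, pandas 2.3.3 and scipy 1.17.1, and figures from matplotlib 3.10.9. A difference was called at 2-fold with at least 10 counts in 1 of 2 libraries, and a count of 0 was set to 3 counts. Since each group is 1 library, no p-value was computed. The script was tested on simulated data. Alternatives were library size only, DESeq2 1.42.0 size factors, upper quartile, FPKM ratios, 4-fold, no filter, at least 50 counts, 1 row per symbol, no new genes, Swiss-Prot symbols only, and for expression FPKM limits of 0.5 and 5, TPM and at least 10 counts. Further sets of rows added after the data were seen are named with the results of these alternatives. Positions are those the authors gave on NW scaffolds. No sequence of the members is shown, because sequences were not used here.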

Additional observations from a re-analysis of the deposited data

How the results depend on the processing

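Each tissue is 1 library of 1 animal, so intervals cover counting error only. No paired analysis was possible because no tissue has a second library. A 4-fold limit left 10 members apart between liver and small intestine (5 higher in each, background 11.4% and 15.4%), 6 between liver and salivary glands (2 higher in liver, 4 in salivary glands, background 12.7% each) and 5 between small intestine and salivary glands (2 and 3, background 11.6% and 6.42%). Library size only gave 7 higher in liver than in salivary glands (background 21.3%), and 20 apart between small intestine and salivary glands, 3 against 17 (background 15.8% and 28.5%). The 4-fold limit is stricter by construction, and for library size the cause was not tested. Under every other scaling, filter and choice of rows, including 2 added after seeing the data (with the 7 models found by product name only, or with all 50 by symbol), each of these counts and each count of members above an FPKM of 1 stayed within 1.5 times its value. The same members were past 2-fold under library size, DESeq2, upper quartile and FPKM scaling for 14 of 16 higher and 5 of 5 lower in liver than in small intestine (exceptions BDH1 and ECI2), 7 of 11 and 7 of 8 against salivary glands (exceptions ACAA2, ACADL, ACADM, ACOX3 and SCP2 gene3980), and 3 of 5 and 7 of 8 between small intestine and salivary glands (exceptions ACADM, ACADVL and EHHADH). Of 262 single folds, 1041 values under other scalings held 834 within the counting interval, 207 outside it and 0 that turned a called direction. CPT1B, CPT1C in 2 libraries and the HADHB model newGene_5606 rest on at most 24 counts.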

Other observations

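Some genes of the other lists were picked after their values were seen. ACACB, the acetyl-CoA carboxylase whose product malonyl-CoA inhibits CPT1, had an FPKM of 10.3 in small intestine, 10.9 in salivary glands and 2.47 in liver. Liver was 3.74-fold below small intestine (95% counting interval 3.33 to 4.20) and 4.39-fold below salivary glands (3.93 to 4.92), so that like CPT1A it was lowest in liver. PPARGC1B, a coactivator of mitochondrial genes, had 538, 107 and 42 counts, with small intestine 21.7-fold above liver (15.8 to 30.4). Its relative PPARGC1A had an FPKM of 6.98, 1.39 and 4.42. FABP3, the heart-type fatty acid binding protein, had 237, 3 and 5 counts, and small intestine was 80.2-fold above liver (33.9 to 249). FABP1, the liver-type protein (gene15728), had 0 counts in all 3 libraries, each of which allows up to 3 counts.

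Of the 7 models whose symbol was on the list but whose nr entry named another product, gene17879 (ACAD9, an assembly factor of complex I related to ACADVL) had an FPKM of 31.4, 20.1 and 51.6. The model gene12105 (ACAT2, the cytosolic thiolase) had 12.4, 12.1 and 23.2, and newGene_7727 (ECHDC3) had 1.29, 4.23 and 6.58. Of the rest, newGene_2244 (a chromodomain Y-like protein) and gene433 (a hypothetical protein) had at most 47 and 30 counts in a library, and gene6870 and gene26094 had 0 in each. Of the models found by product name only and not described above, newGene_11976 (ECI2) had 12, 22 and 32 counts, gene2608 (ECI2) had 0, 6 and 9, newGene_11323 (ECI2) had 2, 3 and 3, and gene26292 (ACADS) had 0 in each.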
